A study of Mus musculus with 2 samples.

Results

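*Tuba1a*, *Tuba1b*, *Tubb2a*, *Tubb2b*, *Tubb3*, *Tubb4a* and *Tubb5* encode 2 α-tubulins and 5 β-tubulins of the mouse, and their levels were followed here from progenitor to neuron in the embryonic telencephalon. They were picked out by gene symbol, and the genes were chosen with earlier results of these data known. They are 7 of the 28001 features counted in septal explants and 7 of the 32286 counted in the telencephalic vesicle, where each gene list holds 20 tubulin genes in all. The septal library pooled explants dissected around the septum from 8 *PGKCre;Rosa26YFP* embryos at E11.5, from 2 litters, and 4 *Dbx1Cre;Rosa26tdTomato* embryos at E12.5, also from 2 litters. The second library pooled whole telencephalic vesicles of 3 wild-type embryos from 2 litters, labelled E12 and described by the authors as aged E11.5-E12. The labels give the strain C57BL/6J and the genotype wild-type for both, so that the Cre and reporter alleles of the septal embryos come from the design text. *PGKCre* recombines throughout the embryo, whereas *Dbx1Cre* marks only cells with a history of *Dbx1* expression. Each library is a pool of embryos on 1 droplet run, so that embryos cannot be told apart, there are no replicates, and all intervals below cover counting error only.

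Microtubules are polymers of α- and β-tubulin heterodimers, and each subunit is encoded by several genes, the isotypes, whose proteins differ mainly in a glutamate-rich C-terminal tail. Apical progenitors (APs) divide at the ventricle and build mitotic spindles, basal progenitors (BPs) divide away from it, and postmitotic neurons use microtubules to migrate and to extend axons and dendrites. TUBB3 protein, recognised by the antibody TuJ1, is a classic marker of young neurons, and mutations in the human counterparts of *Tuba1a*, *Tubb2b*, *Tubb3* and *Tubb5* are known from malformations of the cerebral cortex.

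The last 60 bases of the coding sequence of each β isotype, which encode the tail and the stop codon, are shown. Each pair of β isotypes was less identical over them than over the whole coding sequence. Capitals mark in-frame GAA and GAG codons, both of which encode glutamate.
Tubb2a: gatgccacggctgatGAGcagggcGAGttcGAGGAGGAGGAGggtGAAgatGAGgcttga
Tubb2b: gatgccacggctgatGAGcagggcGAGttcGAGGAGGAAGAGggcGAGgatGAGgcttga
Tubb3: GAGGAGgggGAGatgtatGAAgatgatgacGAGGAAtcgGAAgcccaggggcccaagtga
Tubb4a: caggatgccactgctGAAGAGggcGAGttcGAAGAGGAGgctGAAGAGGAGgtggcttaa
Tubb5: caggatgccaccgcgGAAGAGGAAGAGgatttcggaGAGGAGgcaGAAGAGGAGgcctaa

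The sequences are those of the GENCODE M21 transcripts on GRCm38. Of the 20 codons, 7 in *Tubb3* and 8 or 9 in each of the other β isotypes encode glutamate. *Tuba1a* and *Tuba1b* were 98.3% identical over the whole coding sequence. *Tubb2a* and *Tubb2b* were 96.5% identical over the coding sequence and 95% over these 60 bases. *Tubb3* was the β isotype with the most distinct end, 41.7% to 45.0% identical to the other 4 over the last 60 bases against 81.2% to 83.4% over the coding sequence.

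Each near-identical pair lies on 1 chromosome. *Tuba1b* (chr15:98931425-98934565, minus strand) and *Tuba1a* (chr15:98949837-98953703, minus strand) lie near each other on chromosome 15, and *Tubb2a* (chr13:34074274-34078007, minus strand) and *Tubb2b* (chr13:34126748-34130466, minus strand) on chromosome 13. *Tubb5* (chr17:35833921-35838306, minus strand) and *Tubb4a* (chr17:57080066-57087782, minus strand) are on chromosome 17, and *Tubb3* (chr8:123411424-123422015, plus strand) is on chromosome 8. All coordinates are GRCm38, and the transcript used for each gene has 4 exons. Since the assay reads the 3′ end of transcripts, every stretch of 50 bases in the last 300 bases was compared with the transcripts of all other genes. Of 251 such stretches, 87 of *Tuba1b*, 54 of *Tuba1a* and 41 of *Tubb2a* also occurred in another gene, while 0 of *Tubb2b*, *Tubb3*, *Tubb4a* and *Tubb5* did. Over the coding sequence the shared part was larger, at 95.6% for *Tuba1b*, 90.4% for *Tuba1a* and 60% for *Tubb2a*. It was 65.1% for *Tubb2b*, whose 3′ untranslated part has 723 bases against 157, 197 and 194 in these 3 genes. The counts of *Tuba1b*, *Tuba1a* and *Tubb2a* are therefore uncertain, and more so for reads further from the end. Where the reads fell was not tested. *Gm41396* overlaps *Tuba1b* on the other strand and held 351 UMIs over all barcodes of the telencephalic vesicle.

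The counts are unique molecular identifiers (UMIs), 1 for each captured transcript molecule, from droplet-based scRNAseq of the 3′ end, so that levels were not scaled by gene length. The septal library held 83103280 UMIs in 5827 barcodes and the telencephalic library 194821794 UMIs in 14283, with medians of 12722 and 8503 UMIs per barcode, and 1 barcode sequence occurred in both. After filtering, 5384 and 11758 cells were clustered without tubulin, microtubule, cell cycle, reporter or sex-linked genes, and clusters were named from marker genes. Septal explants contained 3379 AP-like, 548 BP-like, 198 subpallial differentiating-like and 1038 neuron-like cells, with 70 non-neural and 151 unnamed cells. The telencephalic vesicle contained 5626 AP-like, 661 BP-like, 659 subpallial differentiating-like and 1563 neuron-like cells, with 953 non-neural and 2296 unnamed cells. Unnamed cells were left out of the AP, BP and neuron classes, although some of their clusters lay near APs on the axis described below. Class names without the suffix "-like" are used below. The 9 AP markers summed to 2618 counts per 1000000 UMIs of the class (CPM) in septal APs and 1040 CPM in septal neurons, and to 2897 and 773 CPM in the telencephalic classes. Levels were not compared between the libraries, which differ in tissue, stage, kit and counting software.

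From APs to neurons, 5 of the 7 isotypes (*Tuba1a*, *Tubb2a*, *Tubb2b*, *Tubb3* and *Tubb4a*) were at least 2-fold higher in neurons, *Tuba1b* was at least 2-fold lower, and *Tubb5* was less than 2-fold higher. The same genes fell into the same groups in both libraries. Among the 12740 genes with at least 50 UMIs over both classes of the septal explants, 17.7% were at least 2-fold higher in neurons and 16.9% at least 2-fold lower. Among 15701 such genes of the telencephalic vesicle, the shares were 16.7% and 20.9%. The median log2 ratio was 2.49 over the 7 genes against 0.05 over all genes in the septal explants, and 2.27 against -0.11 in the telencephalic vesicle. All 7 genes passed the filter on UMIs, each through both classes. These counts describe the 7 chosen genes and not the whole family. Of 8 other tubulin genes that passed the filter, 2 were at least 2-fold higher and 3 at least 2-fold lower in septal neurons. In telencephalic neurons 2 were higher and 5 lower. In pooled cells, a change in the amount of a transcript per cell and a change in the total RNA of the cell cannot be told apart on this scale.

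**Figure D1:**
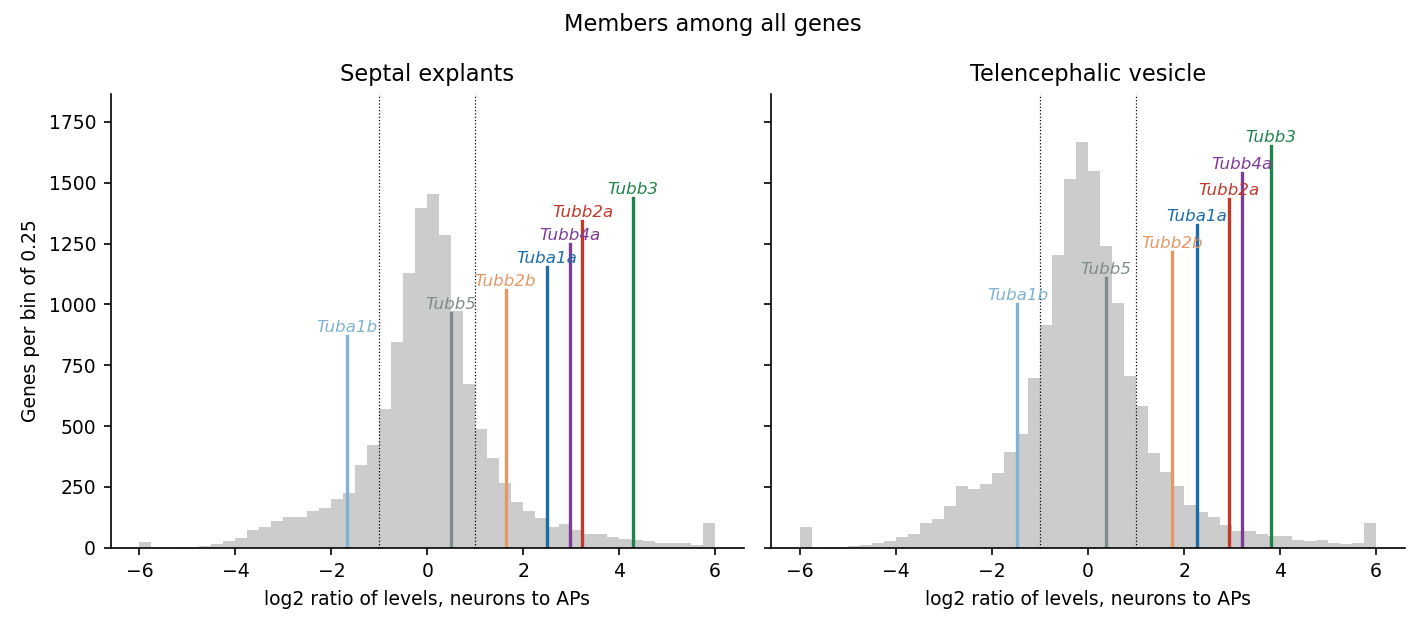
Histogram of the log2 ratio of levels in neurons to APs over all genes with at least 50 UMIs (grey, genes per bin of 0.25, values beyond 6 collected in the outer bins), with each tubulin isotype as a labelled line whose height has no meaning and dotted lines at a ratio of 2 and of 0.5. *Tuba1b* lies left of the lower dotted line, *Tubb5* between both lines and the other 5 genes right of the upper one in both libraries.

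*Tuba1a*, the main α-tubulin gene of the developing nervous system, stood at 2799 CPM in APs, 5808 CPM in BPs and 15706 CPM in neurons of the septal explants. This was a 5.61-fold difference between neurons and APs (95% counting interval 5.57 to 5.65), and in neurons no other gene of the library had more UMIs. In the telencephalic vesicle, *Tuba1a* stood at 1472 CPM in APs, 2858 CPM in BPs and 7076 CPM in neurons, 4.81-fold above APs (4.77 to 4.85), where it ranked as the 3rd gene by UMIs. The change was visible cell by cell. With each septal cell thinned to 8000 UMIs, APs had a median of 22 *Tuba1a* UMIs (10th to 90th percentile 13 to 32) and neurons a median of 126 (57 to 190), so that these ranges did not overlap. With telencephalic cells thinned to 3500 UMIs, the medians were 5 (2 to 10) and 24 (10 to 42), and the ranges met at 10.

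*Tuba1b*, a broadly expressed α-tubulin gene with nearly the same coding sequence, showed the opposite order. It stood at 2873 CPM in septal APs, slightly above *Tuba1a*, then at 1734 CPM in BPs and 894 CPM in neurons. The septal BP clusters differed, at 2174 CPM in 325 cells and 814 CPM in 223 cells, the latter below the pooled neurons. The ratio of neurons to APs was 0.311 (0.305 to 0.317). The telencephalic levels were 997, 752 and 359 CPM, with a ratio of 0.360 (0.349 to 0.371). Thus 2 nearby genes whose coding sequences differ at few positions were ordered in opposite directions over pooled APs, pooled BPs and pooled neurons. Over all clusters, non-neural and unnamed ones included, their log2(CPM + 10) had a Pearson's r of -0.70 over 26 septal clusters. Over 32 telencephalic clusters the r was -0.47. When cells called doublets were kept, *Tuba1b* no longer passed the 2-fold limit in the telencephalic vesicle, with a log2 ratio of -0.93 against -1.47.

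*Tubb3*, the β-tubulin gene used as a neuronal marker, had the largest ratio of the 7. In septal explants it stood at 307 CPM in APs, 3183 CPM in BPs and 5981 CPM in neurons, 19.5-fold above APs (19.2 to 19.8). The telencephalic classes stood at 182, 1508 and 2549 CPM, 14.0-fold above APs (13.8 to 14.3). Only 223 of the septal genes tested and 334 of the telencephalic ones had a higher ratio. In fold terms, *Tubb3* differed from the other isotypes in that most of its change lay between APs and the BP class. This class also held cells that lay near neurons on the differentiation axis described below. BPs were 10.4-fold above APs in septal explants (10.2 to 10.6) and 8.29-fold in the telencephalic vesicle (8.09 to 8.50), while neurons were 1.88-fold and 1.69-fold above BPs. The subpallial differentiating class stood likewise at 2937 and 1073 CPM.

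The level of *Tubb3* in APs has to be read against cells that should lack it. In septal explants, the 70 non-neural cells stood at 304 CPM, beside 307 CPM in APs. Among them the 26 erythroid cells stood at 462 CPM and the 44 mesenchyme cells at 159.5 CPM, and AP clusters ranged from 120 to 517 CPM. The erythroid and mesenchyme cells had median depths of 29045.5 and 16404 UMIs. A *Tubb3* UMI was held by 58.5% of non-neural cells at 8000 UMIs per cell, against 83.2% of APs. Without thinning the shares were 75.7% and 92.2%, at median depths of 19923.5 and 14347 UMIs. The AP level of *Tubb3* in septal explants thus lay between the levels of both kinds of non-neural cells, and how much of it was free RNA was not tested. In the telencephalic vesicle, the 953 non-neural cells stood at 45.1 CPM and the APs at 182 CPM, with 12% and 40.8% of cells holding a UMI at 3500 UMIs per cell. Without thinning, these shares were 25.2% and 75.8% at median depths of 8730 and 11637 UMIs. *Tubb4a* was closest to 0 outside the neural classes, at 5.25 CPM in septal and 2.54 CPM in telencephalic non-neural cells.

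*Tubb2b*, a β-tubulin gene of migrating neurons, was already abundant in APs, at 1523 CPM in septal explants and 1003 CPM in the telencephalic vesicle. It changed little to BPs, which stood at 1849 and 1411 CPM, and reached 4720 and 3375 CPM in neurons. The ratios of neurons to APs were 3.1 (3.07 to 3.13) and 3.36 (3.33 to 3.40). *Tubb5*, the β-tubulin gene with the highest AP level, was the most even of the 7. It stood at 4154 CPM in APs, 4343 CPM in BPs and 5811 CPM in neurons of the septal explants, and at 2600 CPM, 2705 CPM and 3344 CPM in the telencephalic vesicle, which gives ratios of 1.40 (1.39 to 1.41) and 1.29 (1.27 to 1.3). In telencephalic neurons, the intervals of *Tubb2b* (3342 to 3407 CPM) and *Tubb5* (3312 to 3377 CPM) overlapped, so that these neighbours in the order of levels did not differ beyond counting error.

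*Tubb2a* and *Tubb4a*, β-tubulin genes enriched in the nervous system, had the lowest levels of the isotypes in APs, BPs and neurons. Of these classes, neurons had the highest levels of both. *Tubb2a* stood at 39.7 CPM in APs, 34.2 CPM in BPs and 374 CPM in neurons of the septal explants, and at 27.1, 31.1 and 208 CPM in the telencephalic vesicle. Neurons were 9.40-fold (8.93 to 9.90) and 7.67-fold (7.27 to 8.08) above APs. Unlike for *Tubb3*, nearly all of the difference lay between BPs and neurons, at 10.9-fold (9.56 to 12.53) and 6.68-fold (5.78 to 7.75). *Tubb4a* stood at 23.2, 39.0 and 182 CPM in APs, BPs and neurons of the septal explants, and at 13.2, 27.9 and 122 CPM in the telencephalic vesicle. Its ratios of neurons to APs were 7.83 (7.31 to 8.40) and 9.23 (8.59 to 9.92), and BPs stood between both classes, 1.68-fold (1.47 to 1.93) and 2.1-fold (1.79 to 2.46) above APs. At 8000 UMIs per cell, 75% of septal neurons held a *Tubb2a* UMI and 67.7% a *Tubb4a* UMI, against 26.9% and 17.1% of APs. The non-neural cells held *Tubb2a* at 89.2 and 57.9 CPM, above the APs of the same library. The near-identical pair *Tubb2a* and *Tubb2b* thus differed widely in level, with *Tubb2b* at 4720 and *Tubb2a* at 374 CPM in septal neurons.

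**Figure D2:**
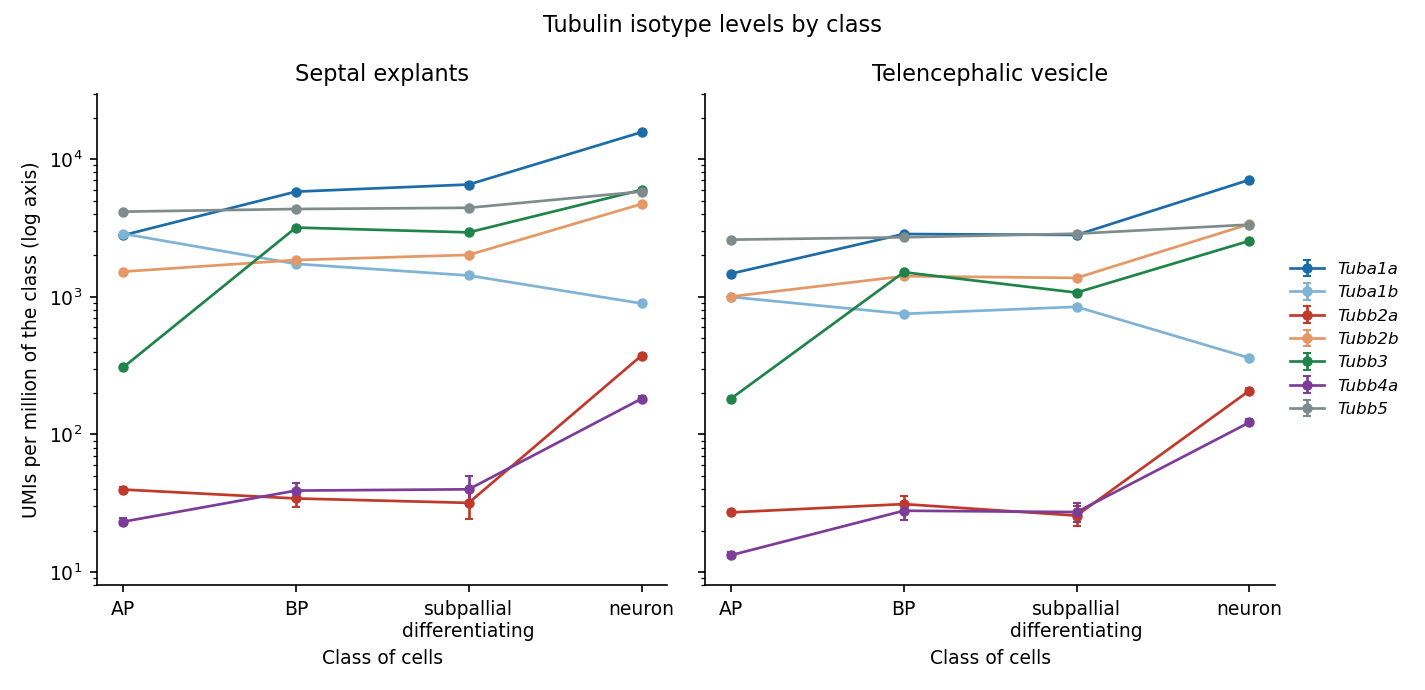
Level of each isotype in CPM (log axis) in APs, BPs, subpallial differentiating cells and neurons of each library. Bars are 95% counting intervals and are mostly smaller than the points. *Tubb3* (green) is already high in BPs, whereas *Tubb2a* (red) and *Tubb4a* (purple) are high in neurons only and *Tuba1b* (light blue) is lowest there.

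To place the isotypes on a finer scale than 4 classes, a differentiation axis was used, the log2 of the UMIs of 10 neuronal genes over those of 9 AP genes in each neural cell, with no tubulin or microtubule gene among them, and cells were divided along it into 10 bins of equal size. APs made up 94.4% to 99.4% of bins 1 to 6 of the septal explants, bin 8 was the richest in BPs with 46.3%, and bin 10 held 91.7% neurons. *Tubb3* stood between 241 and 387 CPM in the first 6 septal bins, at 1041 CPM in bin 7 and at 3942 CPM in bin 8, which was 59.7% of its highest bin. In bin 8, *Tuba1a* had reached 39.1%, *Tubb4a* 29.8% and *Tubb2a* 13.4% of their own highest bins. These shares start from different AP levels, since *Tuba1a* stood at 15.1% and *Tubb4a* at 9.54% of the highest bin already in bin 1. In the telencephalic vesicle, bin 8 held 53.8% of the highest *Tubb3* level, 36.9% for *Tuba1a*, 23.5% for *Tubb4a* and 12.7% for *Tubb2a*.

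Along this axis 6 of the 7 genes were highest in bin 10 in both libraries. *Tubb2a* changed late, from 193 CPM in bin 9 to 532 CPM in bin 10 of the septal explants and from 97.5 to 279 CPM in the telencephalic vesicle. *Tuba1b* was highest in bin 2, at 2927 and 1080 CPM, and lowest in bin 10, at 755 and 284 CPM. *Tubb5* was lowest in bin 6 of the septal explants and bin 7 of the telencephalic vesicle and highest in bin 10. Within neurons themselves, the cells above the median axis value stood at 536 CPM of *Tubb2a* against 201 CPM in the cells below it in septal explants, and at 290 against 118 CPM in the telencephalic vesicle. *Tubb3* differed less between these cells, at 6672 against 5243 CPM and 2709 against 2373 CPM. Within BPs, *Tubb3* stood at 4307 CPM in septal cells above the median axis value and at 2221 CPM in those below it. The telencephalic values were 2104 and 1123 CPM. BPs above the median had axis medians of 1.44 and 1.58, near the 1.58 and 1.70 of neurons below their median. How many cells of the BP class still divide was not tested.

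**Figure D3:**
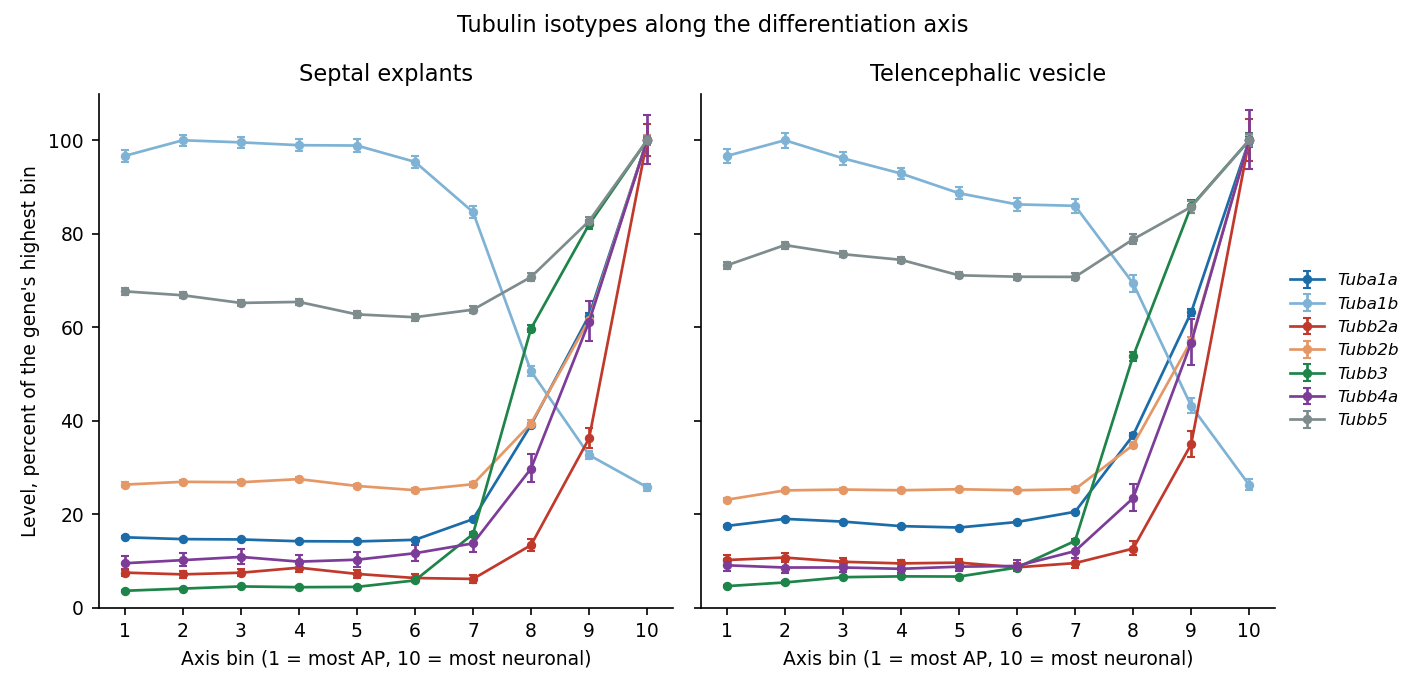
Level of each isotype, in percent of its own highest bin, over 10 equal-size bins of the differentiation axis from most AP to most neuronal. Bars are 95% counting intervals. In bin 8 *Tubb3* is at 59.7% and 53.8% of its highest bin and *Tubb2a* at 13.4% and 12.7%, and the curve of *Tuba1b* descends.

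Because shares within the tubulin pool do not depend on the total RNA of a cell, the composition of the pool was computed as well. *Tuba1a* made up 48.6% of all α-tubulin UMIs in septal APs (48.4% to 48.7%) and 94.4% in neurons (94.3% to 94.5%), with 76.1% in BPs. The share of *Tuba1b* went from 49.9% to 5.38%. In the telencephalic vesicle *Tuba1a* made up 58.2% in APs and 95% in neurons, and *Tuba1b* 39.4% and 4.82%. Nearly all α-tubulin UMIs of neurons were thus counted for 1 gene, and those of APs for 2. These shares carry the uncertainty from sequence shared between *Tuba1a* and *Tuba1b*.

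The β-tubulin pool became more mixed. *Tubb5* made up 62.4% of β-tubulin UMIs in septal APs and 33.6% in neurons, *Tubb3* 4.61% and 34.6%, and *Tubb2b* 22.9% and 27.3%. Telencephalic *Tubb5* made up 59.8% and 34.2%, *Tubb3* 4.18% and 26.1%, and *Tubb2b* 23.1% and 34.5%. *Tubb2a* and *Tubb4a* together remained small, at 2.16% and 1.05% of the pool in septal neurons. The pool itself was larger in neurons, with α-tubulin at 0.576% of all UMIs in septal APs and 1.66% in neurons, and β-tubulin at 0.666% and 1.73%. The telencephalic values were 0.253% and 0.745% for α-tubulin, and 0.435% and 0.978% for β-tubulin.

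**Figure D4:**
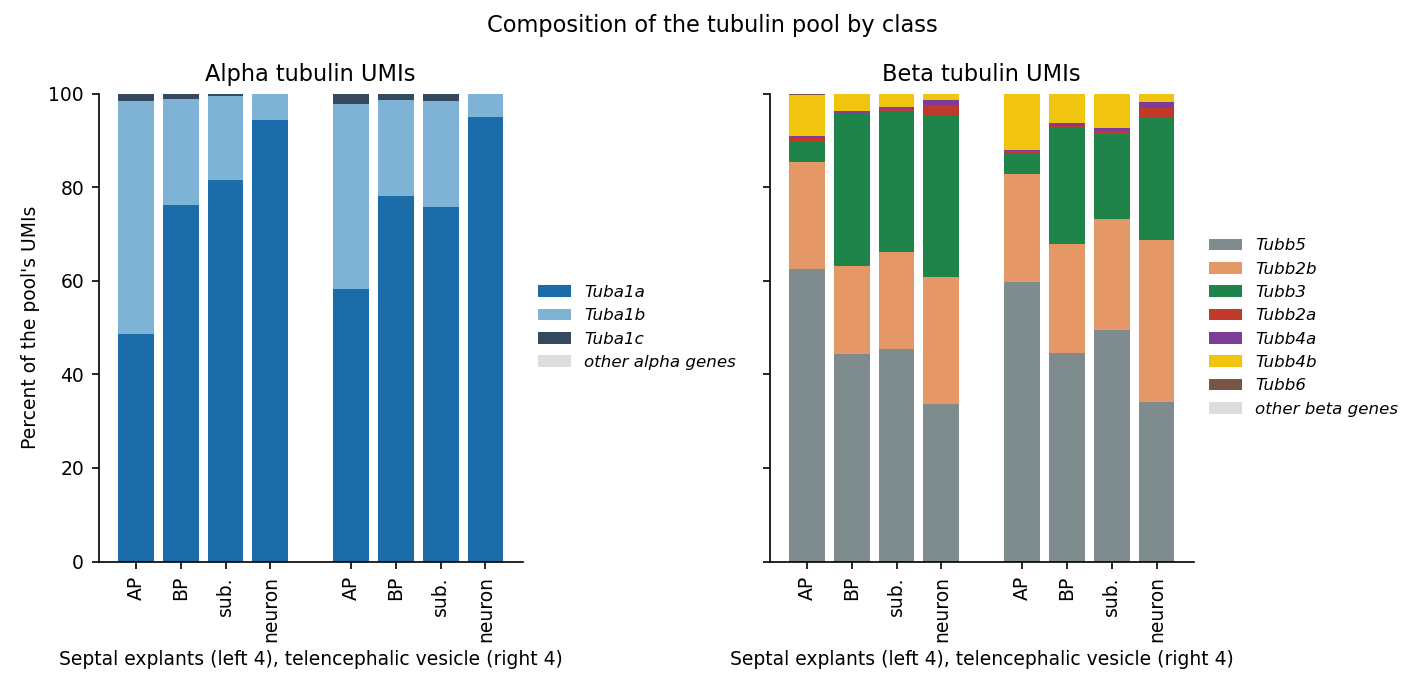
Share of each gene among all α-tubulin UMIs (left panel) and all β-tubulin UMIs (right panel) in APs, BPs, subpallial differentiating cells ("sub.") and neurons of both libraries. *Tuba1a* fills 94.4% and 95% of the α bar in neurons, while the β bar in neurons is divided mainly among *Tubb5*, *Tubb2b* and *Tubb3*.

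Several members, among them *Tuba1b* and *Tubb5*, also varied among APs. APs were divided into 4 equal groups by the share of UMIs from 16 genes of G2 and mitosis. From the lowest to the highest group of septal APs, *Tuba1b* went from 2109 to 3307 CPM, *Tubb5* from 3395 to 4648 CPM and *Tubb2b* from 1338 to 1681 CPM. In telencephalic APs, the same genes went from 869 to 1112, 2205 to 2747 and 950 to 1157 CPM. *Tuba1a* did not follow them, at 2920 and 2759 CPM in septal APs and 1534 CPM in both groups of telencephalic APs. *Tubb4a* had the opposite order, at 32.5 and 17.9 CPM in septal and 16.0 and 11.4 CPM in telencephalic APs. *Tubb3* stood at 360 and 349 CPM in the lowest and highest septal groups, with 269 and 255 CPM between them. In telencephalic APs it stood at 172 and 210 CPM. Median UMIs per cell also differed between the lowest and highest group, at 11516 and 17404.5 in septal and 8752 and 13212 in telencephalic APs, and the part of depth in these differences was not tested. The steepest differences were those of other tubulin genes, with *Tuba1c* at 18.9 and 211 CPM and *Tubb4b* at 270.0 and 1000.3 CPM in septal APs.

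**Figure D5:**
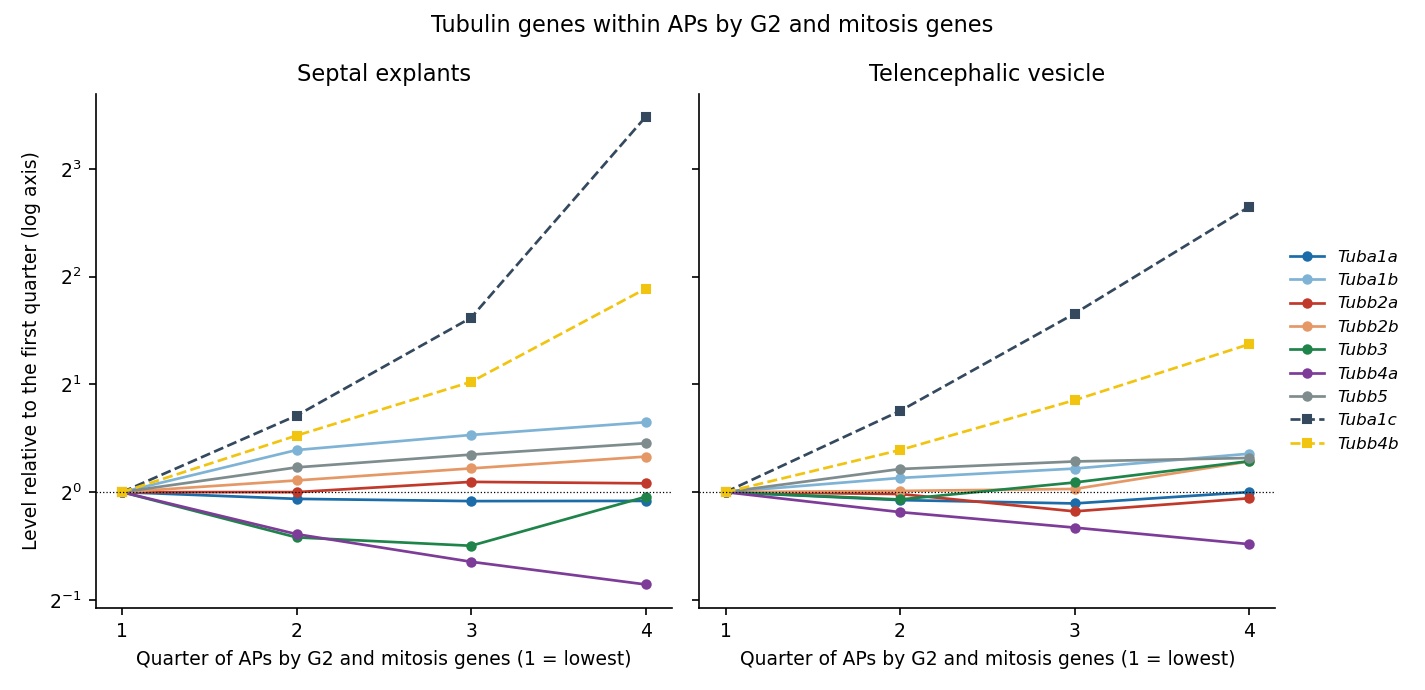
Level of each tubulin gene relative to the group with the lowest share (log axis) in APs divided into 4 groups by the share of UMIs from G2 and mitosis genes. Solid lines are the 7 isotypes and dashed lines *Tuba1c* and *Tubb4b*, which are the steepest, while *Tubb4a* descends and *Tuba1b* and *Tubb5* ascend.

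Neuron classes were next compared with each other. In septal explants, septal glutamatergic neurons had the highest levels of *Tuba1a* (18153 CPM), *Tubb2a* (575 CPM), *Tubb2b* (5306 CPM), *Tubb3* (6982 CPM) and *Tubb4a* (225 CPM), and they were also furthest along the axis, with a median of 3.17 against 2.01 to 2.19 in the other 3 classes. As named here, pallial glutamatergic neurons had the lowest *Tubb3* (4082 CPM) and *Tubb4a* (98 CPM) and the lowest *Tuba1b* (614 CPM). Cajal-Retzius neurons and GABAergic neurons lay between, at 6089 and 5804 CPM of *Tubb3*. In the telencephalic vesicle, pallial glutamatergic neurons had the highest *Tuba1a* (7953 CPM) and *Tubb3* (2855 CPM), and GABAergic neurons the highest *Tubb2a* (224 CPM) and *Tubb4a* (134 CPM). For *Tubb2a* and *Tubb4a*, the counting intervals of Cajal-Retzius neurons overlapped those of the GABAergic class, so that these neighbours did not differ beyond counting error. Within this GABAergic class, a cluster of 84 cells stood at 459 CPM of *Tubb2a* and another of 238 cells at 213 CPM. The cluster of 84 cells had an axis median of 4.54, against 2.71 in the whole class. The orders of classes in both libraries depend on how clusters were named. With other clustering settings or filters, the septal pallial glutamatergic class held 100 to 506 cells in place of 102 and the Cajal-Retzius class 228 to 596 in place of 592, and 1 Cajal-Retzius cluster of 372 cells, at 6460.0 CPM of *Tubb3*, was led by genes such as *Calb2*, *Nxph4* and *Tbr1*. No telencephalic cluster took the septal glutamatergic name, which 51 to 434 cells took under 3 other settings, so that the order of classes was not compared between libraries.

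AP classes named by region also differed in isotype levels. *Tubb2b* ranged from 997 CPM in hem or choroid APs to 1704 CPM in APs without a regional name in septal explants, with 1699 CPM in subpallial APs. Its telencephalic levels ranged from 663 CPM in septal APs to 1352 CPM in subpallial APs. In septal explants *Tuba1b* ranged from 2018 CPM in hem or choroid APs to 3094 CPM in APs without a regional name, and *Tubb5* from 3285 to 4429 CPM in the same classes. *Tuba1a* was highest in subpallial APs of both libraries, at 2972 and 2069.5 CPM, and lowest in septal APs, at 2530.4 and 1054 CPM. In septal explants the *Tuba1a* intervals of septal APs and of hem or choroid APs overlapped. Clusters of the same class also differed. In septal explants, hem or choroid clusters stood at 469 and 1263 CPM of *Tubb2b*, and septal AP clusters at 637, 1436 and 1456 CPM. These orders depend on how clusters were named as well. Under other settings, pallial APs of the septal explants numbered 297 to 921 in place of 809, and telencephalic septal APs up to 991 in place of 391. Over the 14 AP and 6 neuron clusters of each library, the levels of *Tuba1a*, *Tubb3* and *Tubb4a* did not overlap between AP and neuron clusters in either library, and those of *Tuba1b*, *Tubb2a* and *Tubb2b* did not in the telencephalic vesicle but did in septal explants. *Tubb5* overlapped in both, at 2264 to 4755 CPM in AP clusters and 2931 to 6253 CPM in neuron clusters of the septal explants. The share of all genes without such overlap was not computed, so that this describes the chosen isotypes only.

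In septal explants the reporters mark part of the cells by age and lineage. Cells with at least 3 *YFP* UMIs and no *tdTomato* UMI were taken as coming from the E11.5 embryos. Cells with at least 1 *tdTomato* UMI and no *YFP* UMI were taken as the *Dbx1* lineage of the E12.5 embryos. Age, genotype and lineage therefore cannot be told apart. Cells in neither group were left out of this comparison, and the part of free reporter RNA in the groups was not tested. In the 571 YFP and 76 tdTomato neurons, *Tuba1a* stood at 15415 and 17595 CPM, *Tubb2a* at 357 and 531 CPM, *Tubb2b* at 4627 and 5294 CPM, and *Tuba1b* at 972 and 751 CPM, each with intervals that did not overlap. *Tubb3* (6160.5 and 6291 CPM), *Tubb4a* (181 and 204 CPM) and *Tubb5* (5860 and 5917 CPM) had overlapping intervals. These intervals narrow with the number of UMIs, which was 16371 for *Tuba1a* and 190 for *Tubb4a* in tdTomato neurons. The share of all genes whose intervals did not overlap was not computed. The tdTomato neurons also lay further along the axis, with a median of 2.80 against 2.22, and the part of this in the differences was not tested. In the 1961 YFP and 159 tdTomato APs, *Tuba1a* stood at 2740 and 2938 CPM and *Tuba1b* at 2947 and 2606 CPM.

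The rest of the tubulin family was sparse apart from a few genes. Of the 13 other tubulin genes, 8 had at least 50 UMIs over APs and neurons in each library. *Tuba1c*, an α-tubulin gene, was at 0.153 and 0.154 of its AP level in septal and telencephalic neurons, *Tubb4b* at 0.399 and 0.361, and *Tubb6* at 0.201 and 0.144. *Tuba4a* (14.9-fold and 6.10-fold) and *Tubg2* (5.31-fold and 7.14-fold) were higher in neurons, on few UMIs, while *Tubg1*, the γ-tubulin gene of the microtubule organising centre in dividing cells, was close to even at 0.98 and 0.834. *Tubd1* and *Tube1*, the δ- and ε-tubulin genes of centrioles, were at 0.671 and 0.794 in septal explants and at 0.470 and 0.381 in the telencephalic vesicle.

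Genes for proteins that bind microtubules in neurons were mostly higher in neurons, namely 23 of 27 at least 2-fold in septal explants and 21 of 27 in the telencephalic vesicle, with 1 lower in each, and medians of 1.84 and 1.76 on the log2 scale. *Dcx* (36.9-fold and 77.0-fold), *Stmn2* (21.8-fold and 54.7-fold), *Mapt* (53.8-fold and 34.9-fold) and *Dpysl3* (18.4-fold and 9.79-fold) led, and *Map7* was lower at 0.204 and 0.398. Genes of the mitotic spindle had the opposite order, with 18 of 20 at least 2-fold lower in both libraries and medians of -2.99 and -2.48. *Kif15* stood at 0.0870 and 0.103, *Kif4* at 0.114 and 0.135, *Kif11* at 0.0896 and 0.137, and *Kif23* at 0.0907 and 0.151. The chaperonin and cofactor genes that fold tubulin stayed within 2-fold, with 0 of 19 and 0 of 20 past it in either direction and medians of 0.15 and -0.04. Over all genes, 17.7% and 16.7% were at least 2-fold higher in septal and telencephalic neurons, and 16.9% and 20.9% at least 2-fold lower.

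Among genes of tubulin modification, 7 of 16 were at least 2-fold higher and 1 lower in septal neurons. In telencephalic neurons 3 of 17 were higher and 1 lower, and the share that was higher is near the 16.7% of all genes. *Ttll7* (4.6-fold and 6.43-fold) and *Ttll1* (4.34-fold and 3.56-fold), both involved in adding glutamate to tubulin tails, and *Atat1*, the α-tubulin acetyltransferase (4.15-fold and 3.66-fold), were higher in both libraries. *Ttll4*, of the same family as *Ttll7* and *Ttll1*, was lower at 0.353 and 0.320. For severing enzymes and motors, 10 of 22 and 8 of 22 were higher and 2 lower in each, among them the kinesin genes *Kif5a* (17.4-fold and 15.3-fold), *Kif21b* (17.5-fold and 7.76-fold) and *Kif3c* (7.04-fold and 4.33-fold) and the dynein gene *Dync1i1* (7.68-fold and 4.82-fold). *Nde1* (0.147 and 0.164) and *Fignl1* (0.169 and 0.167) were lower. The shares of lower genes in the modification, severing and motor lists did not exceed the 16.9% and 20.9% of all genes. The shares of all genes that were higher were 17.7% and 16.7%. Of 8 abundant reference genes, *Actb* (2.72-fold and 2.18-fold) and *Actg1* (3.03-fold and 2.46-fold) were higher in neurons, and *Gapdh* was lower at 0.418 and 0.402. *Hprt* stood at 0.559 in septal explants and was past 2-fold lower only in the telencephalic vesicle, at 0.387.

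To name the genes distributed most like each isotype, Pearson's r of log2(CPM + 10) was computed over the 26 and 32 clusters against 10777 genes, and the lower of both values was ranked. This is a description over clusters of the same library that differ in depth, with no test. *Tubb3* was closest to *Tagln3* (r of 0.99 and 0.97), *Mllt11* (0.97 and 0.96), itself a gene of the axis, and *Celf3* (0.97 and 0.95). *Tuba1a* was closest to *Stmn1* (0.96 and 0.98), *Meis3* and *Crmp1*, and *Tubb2b* to *Stmn3* (0.93 and 0.93), *Uchl1* and *Stmn1*. *Tuba1b* ran with *H2afz* (0.97 and 0.98), *Ran* and *Lsm5*, genes of chromatin, nuclear transport and RNA processing. *Tubb2a* ran with *Ap2m1* (0.90 and 0.93), *Actl6b* and *Tcta*, *Tubb4a* with *Rufy3* (0.94 and 0.96), *Gstm7* and *Nacad*, and *Tubb5* less closely with *Smarcb1* (0.87 and 0.88), *Tubb2b* and *Pja1*.

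Markers of other cell types were summed in the same classes. The 7 erythroid markers, none at 0, summed to 509 CPM in APs and 547 CPM in neurons of the septal explants, and to 2079 and 5680 CPM in the telencephalic vesicle, where neurons also had fewer UMIs per cell (median 6888 against 11637). The tubulin levels of telencephalic erythroid cells were low, at 262 CPM of *Tuba1a* and 29.4 CPM of *Tubb3*. Those of the 26 septal erythroid cells were higher, at 1513 and 462 CPM. Macrophage, endothelium and mesenchyme markers summed to at most 16.8 CPM in these classes. The part of free RNA in the differences between classes was not tested.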

How the data were processed

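The authors deposited raw UMI counts per gene and cell barcode for 2 scRNAseq libraries, 1 per condition, without normalisation. Per the submitters' processing notes these were made with Cell Ranger 2.1.1 (septal explants) and 7.1.0 (telencephalic vesicle) on mm10, and whether intronic reads were counted is not given in the sources used here. The genes and lists were chosen with earlier results of these data known. Cells were kept within 3 MAD of the median mitochondrial share, which removed 383 and 1812 barcodes, and Scrublet in scanpy 1.11.5 removed 60 and 713 doublets (1.10% and 5.72%, below the expected 4.36% and 9.98%). Clusters (2000 variable genes, 30 principal components, Leiden resolution 1.5) took the name of the class with the highest mean marker z score, given at least 3 markers, each in 10% of cells and at 1.5 times the mean of other clusters. Where a cluster's median depth was below the library median divided by 3, a name required a class marker among its 10 leading genes. A name was also refused where a rival class had more markers among these genes. Regional AP names needed a mean z of at least 0.5. The 10% limit, and the condition that neuron clusters have an axis median above 0 and AP clusters below 0, were set after clusters were seen. Unnamed telencephalic clusters of 646, 515 and 163 cells had axis medians of -2.81, -2.74 and -2.81, beside -3.09 in telencephalic APs. They met the criteria of no class and were not counted as APs.

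UMIs were summed per class and scaled to CPM. Ratios carry exact conditional 95% intervals, levels exact Poisson and shares Clopper-Pearson intervals, all for counting error only, and PCR or embryo variation is not in them. With 1 library per condition no significance test was made, and called means a ratio of at least 2 or at most 0.5. Thinning drew 8000 (septal) and 3500 (telencephalic) UMIs per cell, leaving out 171 APs and 73 neurons, and 83 APs and 31 neurons. All 7 isotypes were named, and all other tubulin genes with at least 50 UMIs. Of each list, up to 4 genes with the largest and 4 with the smallest telencephalic ratios past 2-fold were named, as well as the 3 genes most like each isotype. The ratio and call steps were tested on simulated data. Sequences and positions come from GENCODE M21 (GRCm38). The coding ends of the α-tubulin genes are not reported here. Scripts ran under Python 3.11.15 with igraph 0.11.9 for clustering, scipy 1.17.1 for intervals, pandas 2.3.3 and numpy 2.4.6 for tables, and matplotlib 3.10.9.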

Additional observations from a re-analysis of the deposited data

Results flagged for a closer look

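*Tubb2a* had opposite signs between BPs and APs in the libraries. The ratio of BPs to APs was 0.861 in septal explants (0.748 to 0.988) and 1.15 in the telencephalic vesicle (0.990 to 1.33), and the difference between the libraries was not tested.

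An unnamed cluster of 63 telencephalic cells, which entered no comparison, had 3189.5 CPM of *Tubb3* (2834 to 3577), above the 182 CPM of APs and the 45.1 CPM of non-neural cells. It met the naming criteria of no class, its median was 1164 UMIs per cell, and *Tagln3*, *Stmn2* and *Tubb3* were among its leading genes. At this depth a name required a class marker among the 10 leading genes, and it had none there. It also stood at 8848 CPM of *Tuba1a* and 699 CPM of *Tuba1b*, on 810 and 64 UMIs.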

How the results depend on the processing

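No paired analysis was possible because each condition has 1 library. The number of isotypes at least 2-fold higher in neurons was 5 in both libraries under the 13 alternatives planned for each and under those chosen after seeing the data (looser naming of clusters in both libraries, YFP cells only and tdTomato cells only in septal explants). The number at least 2-fold lower was 1 in each, except with doublets kept in the telencephalic vesicle, where it was 0. There the *Tuba1b* log2 ratio was -0.93, and 1342 cells took the erythroid name against 400 as reported, and the cause was not tested. Each isotype kept its sign under every alternative listed here. The log2 ratio of *Tubb3* ranged from 3.92 to 4.47 in septal explants and from 3.42 to 4.05 in the telencephalic vesicle, that of *Tuba1a* from 2.34 to 2.58 and from 1.96 to 2.38, and that of *Tubb2a* from 3.09 to 3.83 and from 2.55 to 3.05. Scaling by the median ratio over genes shifted every telencephalic log2 ratio by 0.11. With 20 bins in place of 10, the highest *Tuba1b* level in septal explants moved from 15% to 42.5% of the cells along the axis. Depth limits *Tubb2a* and *Tubb4a*, held by few APs.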

Other observations

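Within the Cajal-Retzius class, 1 cluster in each library was led by *Ccno*, *Mcidas* and *Foxj1*, genes of multiciliated cells, beside *Trp73* and *Cdkn1a*. It was singled out after its values were seen. In septal explants its 57 cells stood at 5029.6 CPM of *Tuba1a*, 35.3 CPM of *Tubb2a* and 1327 CPM of *Tubb2b*, while the other 2 Cajal-Retzius clusters stood at 14869 and 17069 CPM, 420.4 and 368 CPM, and 4867.5 and 5072 CPM. Its *Tuba1b* level was 1599.5 CPM against 1119 and 803 CPM, and its *Tubb3* level 3109 CPM against 6242 and 6460.0 CPM. The 177 telencephalic cells of the corresponding cluster stood at 4536 CPM of *Tuba1a* and 115 CPM of *Tubb2a*, while the other Cajal-Retzius cluster stood at 7666.5 and 303 CPM. Both clusters had lower axis medians than their neighbours, at 1.24 against 1.95 and 2.37, and at 1.58 against 3.27. This septal cluster is the one through which *Tuba1b*, *Tubb2a*, *Tubb2b* and *Tubb5* overlapped between AP and neuron clusters. Of the septal clusters it was compared with, that at 17069 CPM of *Tuba1a* was led by genes such as *Calb2*, *Nxph4* and *Tbr1*. It met 4 of the Cajal-Retzius markers, against 7 in the cluster at 14869 CPM, so that its name is less certain.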
